A study of Mus musculus with 8 samples.

Results

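Kallikrein 1-related peptidases are secreted serine proteases with trypsin- or chymotrypsin-like activity. In the mouse their genes form a tandem array of close paralogues and pseudogenes beside the other kallikrein genes. They are best known from the salivary gland, where several act on growth factor and hormone precursors, and some have been described in the Leydig cells of the testis. The group described here is a list of 10 such genes, Klk1b5, Klk1b8, Klk1b9, Klk1b11, Klk1b16, Klk1b21, Klk1b22, Klk1b24, Klk1b26 and Klk1b27. The list was chosen by measured values: Klk1b8 and Klk1b5 were among the large falls against the MIWI +/- reference in these arrays, and the other genes joined as their relatives. Members were taken where a transcript cluster of the array, the set of probes summarised for a transcript, carried that symbol alone, which held for 8 of the 10 among 19938 genes so measured. Klk1b26 was read on a cluster that also names Egfbp2, which the RefSeq gene table lists as a synonym of Klk1b26; it is given separately as Klk1b26/Egfbp2. No reading of Klk1b21 was analysed here, and it enters only the promoter comparison.

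The arrays measured total RNA of round spermatids, the early haploid male germ cells, purified from testes of adult C57BL/6 mice on an albumin gradient and pooled over gradient fractions. There were 4 genotypes at Piwil1, the gene of the piRNA-binding protein MIWI, with 2 biological replicates each and 8 arrays in all. The symbols are read here as wild type (+), null (-) and knock-in (KI). A wild-type allele was present in MIWI +/-, beside a null one, and in MIWI +/KI, beside a knock-in one. It was lacking in MIWI -/- and in MIWI -/KI, whose knock-in allele stood beside a null. Thus the MIWI +/- reference itself carried a null allele, and no genotype had only wild-type alleles. The labels do not say what the knock-in allele changes, and the series title concerns MIWI catalysis. No source used here says if a replicate was 1 mouse or several. The p-values therefore reflect only how far these preparations scatter, which may be technical.

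Array medians lay between 66.6 and 71.8 intensity units, and 2 arrays per genotype limit the precision of every value. Piwil1 was lowest in the MIWI -/- arrays (196 and 151, against 371 or more elsewhere), although where its probes lie relative to the null allele is not given. MIWI -/KI replicates 1 and 2 correlated at r = 0.970 over clusters, less than either did with its closest array of another genotype (0.988 and 0.981). MIWI -/- replicates 1 and 2 also lay closer to an array of another genotype (0.988 and 0.987) than to each other (0.984). Of 20 round spermatid markers none was at 0 on any array, and their lowest value was 44.2. In MIWI -/- against MIWI +/-, 6 of the 20 fell, beside 3.53% of all genes, and 14 were not called. The 6 included the transition protein and protamine genes Tnp1, Tnp2, Prm1 and Prm2, and the median log2 difference of the 20 was -0.22. In such bulk RNA, fewer cells of a type or stage and less RNA per cell cannot be told apart.

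The kallikrein-related genes did not change as one group. Klk1b8, Klk1b5 and Klk1b26/Egfbp2 had a clear signal in every array with a wild-type Miwi allele and a low one in every array without it. Klk1b24 went the other way and was highest in MIWI -/KI. Klk1b9 showed a smaller graded difference, and Klk1b11, Klk1b16, Klk1b22 and Klk1b27 stayed between 14.8 and 35.1 on all arrays.

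**Figure D1:**
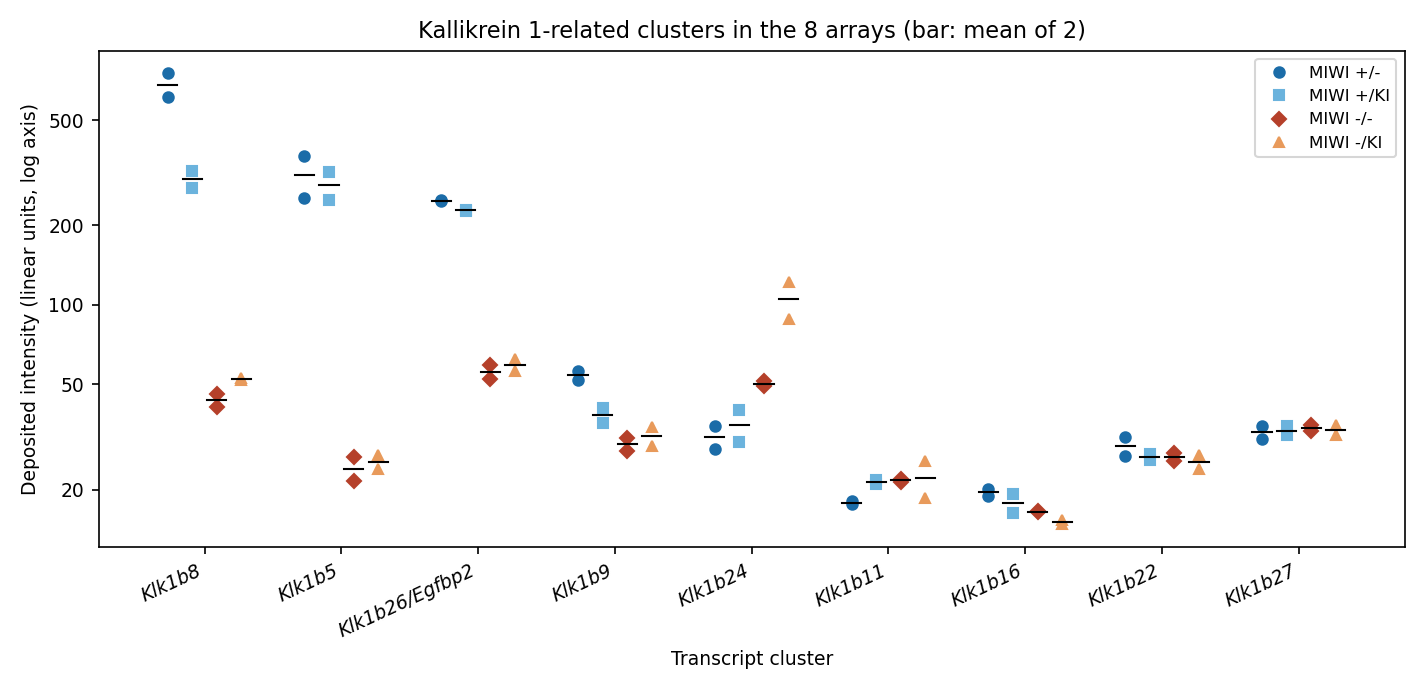
Deposited intensity (linear units on a log axis) of 9 kallikrein 1-related clusters, with 2 points per genotype for the 2 arrays and a bar for their mean. Klk1b8, Klk1b5 and Klk1b26/Egfbp2 separate the 4 arrays with a wild-type allele from the 4 without one, Klk1b24 is highest in MIWI -/KI (88.1 and 122), and the 4 clusters on the right stay between 14.8 and 35.1.

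Since both genotypes without a wild-type allele had served to pick Klk1b8 and Klk1b5, the differences of MIWI -/- and MIWI -/KI from MIWI +/- are given for all members as a description, without a test. Klk1b8 read 611 and 752 in MIWI +/-, 321 and 276 in MIWI +/KI, 41.2 and 46.0 in MIWI -/-, and 52.0 and 52.9 in MIWI -/KI. The arrays thus fell into 3 levels without overlap: high in MIWI +/-, intermediate in MIWI +/KI, and low in both genotypes without a wild-type allele. Within the low level MIWI -/KI lay slightly above MIWI -/- without overlap, beside 11.9% of all genes. The log2 difference from MIWI +/- was -3.96 (SE 0.17, 15.6-fold lower) in MIWI -/- and -3.69 (SE 0.17, 12.9-fold lower) in MIWI -/KI.

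Klk1b5 read 255 and 367 in MIWI +/-, 318 and 248 in MIWI +/KI, 21.5 and 26.5 in MIWI -/-, and 24.0 and 26.9 in MIWI -/KI. Here the arrays fell into 2 levels, since MIWI +/KI overlapped MIWI +/-, and MIWI -/KI overlapped MIWI -/-. Against MIWI +/-, Klk1b5 stood at -3.68 (SE 0.23, 12.8-fold lower) in MIWI -/- and -3.59 (SE 0.23, 12-fold lower) in MIWI -/KI.

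Klk1b26, also known as prorenin-converting enzyme, shared its cluster with Egfbp2. That cluster read 246 and 250 in MIWI +/-, 229 and 227 in MIWI +/KI, 52.3 and 59.3 in MIWI -/-, and 62.4 and 56.3 in MIWI -/KI. The arrays made 2 clear levels, with or without a wild-type allele. Within the upper level MIWI +/KI lay just below MIWI +/- without overlap, as 26% of all genes did. The log2 difference from MIWI +/- was -2.15 (SE 0.15, 4.45-fold lower) in MIWI -/- and -2.06 (SE 0.15, 4.18-fold lower) in MIWI -/KI.

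The low readings lay in the lower part of each array. For Klk1b8, 88.7% and 91.1% of all clusters were dimmer in the MIWI +/- arrays, against 32.6% and 35.0% in MIWI -/-; for Klk1b5 these shares were 77.8% and 83.1%, against 13.95% and 18.5%. These shares describe a position on the array and not an abundance, since probes differ in brightness. No detection call was part of the deposited table, and how much of a low reading was non-specific signal was not tested, so a fold against it may be too small.

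Because these genes are close copies of each other, their promoters are shown to let a reader see how alike they are where the readings differ. The 250 bases before the annotated start are given 5′ to 3′ from RefSeq, build GRCm38.p6. They are shown for the 3 genes that were far lower without a wild-type allele and for Klk1b24, which was higher. Capitals mark TTTAAA.
Klk1b8 (chr7:43950416-43950665, plus strand): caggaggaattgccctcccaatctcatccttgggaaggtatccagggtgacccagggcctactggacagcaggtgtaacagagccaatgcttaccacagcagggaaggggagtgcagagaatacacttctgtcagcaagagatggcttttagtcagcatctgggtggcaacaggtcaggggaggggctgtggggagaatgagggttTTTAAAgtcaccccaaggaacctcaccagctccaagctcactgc
Klk1b5 (chr7:44216224-44216473, plus strand): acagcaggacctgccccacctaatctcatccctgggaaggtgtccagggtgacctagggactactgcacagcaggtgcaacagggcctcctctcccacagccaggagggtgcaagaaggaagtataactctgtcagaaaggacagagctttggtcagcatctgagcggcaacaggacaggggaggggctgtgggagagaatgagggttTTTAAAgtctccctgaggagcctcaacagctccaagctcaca
Klk1b26 (chr7:44012428-44012677, plus strand): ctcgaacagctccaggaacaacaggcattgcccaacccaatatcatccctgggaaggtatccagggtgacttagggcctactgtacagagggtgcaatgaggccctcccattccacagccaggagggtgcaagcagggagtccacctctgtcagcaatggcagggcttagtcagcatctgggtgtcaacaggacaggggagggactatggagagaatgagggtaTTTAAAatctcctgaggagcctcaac
Klk1b24 (chr7:44187986-44188235, plus strand): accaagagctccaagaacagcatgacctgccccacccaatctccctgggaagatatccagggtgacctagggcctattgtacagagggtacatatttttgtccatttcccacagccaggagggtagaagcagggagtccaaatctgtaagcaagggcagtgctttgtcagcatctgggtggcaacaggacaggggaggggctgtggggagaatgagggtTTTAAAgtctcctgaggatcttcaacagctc

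All 10 listed genes had a promoter in the RefSeq table (300 bases, 250 before to 50 after the start). Over the 45 pairs, aligned promoters were identical at 78.2% to 97.7% of columns, with a median of 83.6%. Among the 4 genes shown, Klk1b5 matched Klk1b26 at 84.97%, Klk1b24 at 84.19% and Klk1b8 at 81.73%. Klk1b24 matched Klk1b26 at 84.33%, and Klk1b8 matched Klk1b26 at 80.35% and Klk1b24 at 79.79%. TTTAAA, which reads the same on both strands and was picked after the sequences were seen, occurred in 10 of the 10 promoters and in 13.2% of all 32851 promoters of that length. In 9 of the 10 it lay before the start, 17 to 44 bases from it counted from its first base. TGACGTCA, the full cyclic AMP response element that CREM binds in spermatids, was in 0 of the 10 and in 1.79% of all promoters. Its 5-letter core TGACG, which the full element contains, was in 0 and in 20.8%. TATAAA was in 0 of the 10 and in 13.6%, and AGAACA, a part of the element bound by steroid receptors, was in Klk1b24 alone and in 19.0%. All were searched on both strands. A match is only a run of letters, and a missing match says only that the letters are not in this window. Because the 10 promoters are close copies, their counts are not independent cases, and no enrichment is read from the shares.

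Among the other members, Klk1b9, an EGF-binding protein of the salivary gland, read 56.3 and 51.9 in MIWI +/-, 40.7 and 35.7 in MIWI +/KI, 31.3 and 28.0 in MIWI -/-, and 34.5 and 29.1 in MIWI -/KI. Both arrays of every other genotype lay below both MIWI +/- arrays, in the same order of genotypes as Klk1b8 but over a much smaller range. The log2 difference from MIWI +/- was -0.87 (SE 0.15) in MIWI -/- and -0.77 (SE 0.15) in MIWI -/KI. Its cluster, like those of the other members, could hold signal from a close paralogue, and this was not tested.

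Klk1b24, a protease described in Leydig cells, read 28.5 and 34.9 in MIWI +/-, 30.3 and 39.9 in MIWI +/KI, 49.3 and 51.5 in MIWI -/-, and 88.1 and 122 in MIWI -/KI. Both genotypes with a wild-type allele overlapped, MIWI -/- lay above them, and MIWI -/KI lay above all other arrays. The log2 difference from MIWI +/- was 0.68 (SE 0.21) in MIWI -/- and 1.72 (SE 0.21, 3.28-fold higher) in MIWI -/KI.

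The remaining 4 members stayed low. Klk1b27, likewise known from Leydig cells, read 31.2 to 35.1 over the 8 arrays, and Klk1b22, another EGF-binding protein, 23.8 to 31.6. Klk1b11 read 17.6 to 25.8, and Klk1b16, known as gamma-renin, 14.8 to 20.1. In MIWI -/- against MIWI +/-, 4 of the 8 single-symbol members lay lower in both arrays without overlap (Klk1b5, Klk1b8, Klk1b9 and Klk1b16), beside 22.4% of all genes, and 2 lay higher (Klk1b11 and Klk1b24), beside 27%. In MIWI -/KI against MIWI +/- the same 4 lay lower, beside 18.2%, and the same 2 higher, beside 23.2%. The members' median log2 difference was -0.19 in the first comparison and -0.29 in the second, against 0.01 and -0.00 over all genes. The list was drawn up on these comparisons, so nothing is read from these counts.

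**Figure D2:**
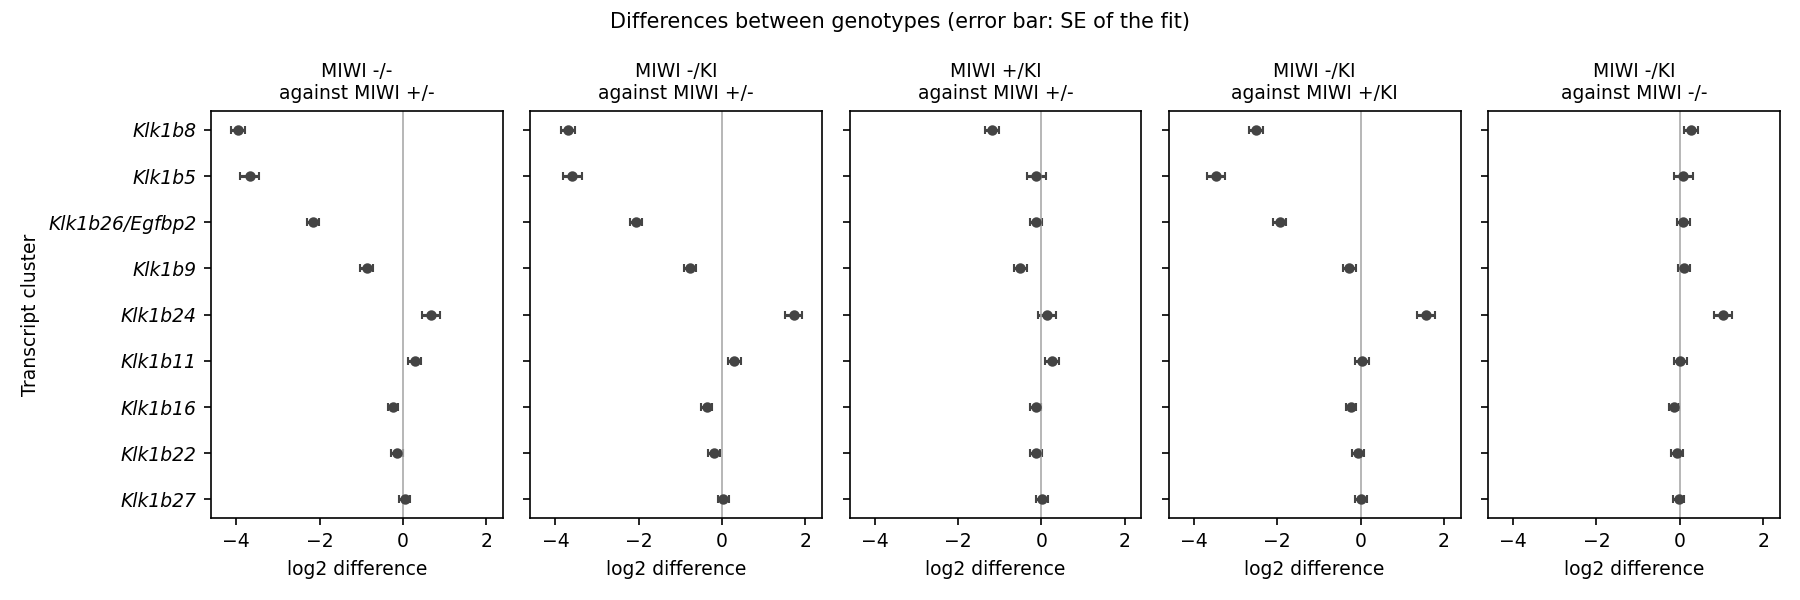
Log2 difference of mean intensity for 9 kallikrein 1-related clusters in 5 comparisons of genotypes; points are the fitted difference of 2 against 2 arrays and bars its SE. Klk1b8, Klk1b5 and Klk1b26/Egfbp2 lie far to the left in the 3 comparisons of a genotype without against one with a wild-type allele, and of these Klk1b8 alone is clearly left of 0 in MIWI +/KI against MIWI +/- (-1.19); Klk1b24 lies right of 0 wherever MIWI -/KI comes first.

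MIWI +/KI against MIWI +/- compares a knock-in with a null allele beside the same wild-type allele. The MIWI +/KI arrays played no part in choosing the list, but the MIWI +/- arrays did, and high MIWI +/- values of Klk1b8 and Klk1b5 were part of that choice. Their differences here are therefore values without a test. Klk1b8 was 2.28-fold lower in MIWI +/KI, without overlap, at a log2 difference of -1.19 (SE 0.17; -1.34 to -1.04 over 18 alternatives). For Klk1b5 the difference was -0.12 (SE 0.23), smaller than its SE, and the arrays overlapped. Of the other 6 members none passed limma's threshold of adjusted p under 0.05, with 0.0953% of all genes called (0.0251% higher and 0.0702% lower), and 1 had an unadjusted p under 0.05. Without overlap, 1 lay lower (Klk1b9), beside 26% of all genes, and 1 higher (Klk1b11), beside 30.9%. Klk1b9 was the 1 with the low unadjusted p, at -0.50 (SE 0.15, limma adjusted p = 0.258; 0.0370 to 1.00 over the alternatives). Of the alternatives run, it passed only with array weights, where 2650 of 35512 clusters passed, against 23 without them. Klk1b24 stood at 0.14 (interval -0.35 to 0.63). Klk1b26/Egfbp2 stood at -0.12 (SE 0.15, interval -0.47 to 0.23).

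MIWI -/KI against MIWI +/KI compares absence with presence of the wild-type allele beside a knock-in allele. The MIWI -/KI arrays had helped to single out Klk1b8 and Klk1b5, so their differences of -2.50 (SE 0.17, 5.67-fold lower) and -3.47 (SE 0.23, 11.1-fold lower) carry no test. Klk1b26/Egfbp2 fell by 1.94 on the log2 scale (SE 0.15, 3.84-fold lower, limma adjusted p = 0.00145), and it passed under each of 18 alternatives (adjusted p 0.000267 to 0.0383). Of the 6 other members, 1 passed, beside 2.43% of all genes (1.14% higher): Klk1b24 rose 2.98-fold (log2 difference 1.58, SE 0.21, limma adjusted p = 0.0135). Leaving out MIWI +/KI replicate 1 ended this call (adjusted p = 0.172), as did leaving out replicate 2 (0.0735), and a fit of only the groups compared (0.0876), within a range of 0.00880 to 0.172 over the alternatives. The MIWI -/KI arrays differed most from each other; without replicate 1 the log2 difference of Klk1b24 was 1.81 (limma adjusted p = 0.00880), and without replicate 2 it was 1.34 (0.0470). For Klk1b26/Egfbp2 the log2 differences were -2.02 and -1.87. The Klk1b26/Egfbp2 cluster could hold signal from a close paralogue such as Klk1b8 or Klk1b5, and this was not tested. Without overlap, Klk1b24 lay higher, beside 25% of all genes, and Klk1b9 and Klk1b16 lower, beside 24.1%, but neither of the latter passed (Klk1b9: -0.27, SE 0.15, limma adjusted p = 0.436). The 6 members had a median of -0.03, as did all genes.

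MIWI -/KI against MIWI -/- compares both genotypes without a wild-type allele with each other, all arrays that had served to choose the list. Klk1b8 and Klk1b5 again carry no test. Klk1b8 lay slightly higher in MIWI -/KI, without overlap, at 0.27 (SE 0.17), and Klk1b5 stood at 0.09 (SE 0.23). Of the other 6 members none passed in limma, 1 had an unadjusted p under 0.05, and 0% of all genes passed. The 1 was Klk1b24, 2.06-fold higher in MIWI -/KI without overlap (log2 difference 1.04, SE 0.21, interval 0.55 to 1.53, limma adjusted p = 0.998; alternatives 0.0815 to 1.00), where 11.9% of all genes lay higher without overlap. Klk1b16 lay lower without overlap (-0.13, SE 0.12), beside 10.9%. For Klk1b26/Egfbp2 the difference was 0.09 (interval -0.26 to 0.44).

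Whether losing the wild-type allele differed with the allele beside it was tested as the difference of both differences, MIWI -/KI minus MIWI +/KI less MIWI -/- minus MIWI +/-. Of the 6 members not singled out, 0 passed in limma, beside 0% of all genes, and 2 had an unadjusted p under 0.05: Klk1b24 (0.90, SE 0.30, limma adjusted p = 0.297) and Klk1b9 (0.60, SE 0.21, limma adjusted p = 0.329). Klk1b26/Egfbp2 stood at 0.21 (SE 0.21, interval -0.28 to 0.70). As values without a test, Klk1b8 stood at 1.46 (SE 0.24), the largest of any member, and Klk1b5 at 0.21 (SE 0.32).

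The members were next set in their order on the chromosome. RefSeq places 37 kallikrein genes and pseudogenes in the locus from Klk14 to Klk1, and 23 of them had a cluster here. Klk1b8, Klk1b26/Egfbp2 and Klk1b5, far lower without a wild-type allele, were not neighbours. Between Klk1b8 and Klk1b5 lie 20 genes and pseudogenes, 8 of them measured. Klk1b7-ps, the transcribed pseudogene next to Klk1b8, read 324 to 621 over the arrays and its log2 difference from MIWI +/- was -0.34 for MIWI -/- and -0.40 for MIWI -/KI. Klk1b1, on the other side of Klk1b8 beyond a pseudogene, read 14.5 to 18.1. Over the 14 measured genes of the locus that are not on the list, the log2 difference ran from -0.34 (Klk1b7-ps) to 0.35 (Klk15) in MIWI -/- and from -0.40 to 0.19 (the same pair) in MIWI -/KI. None of the 14 passed limma's threshold in either comparison, beside 6.13% and 6.23% of all genes called. Apart from Klk1b7-ps, however, none of them read above 84.2 on any array, and a fall from so low a reading may not show.

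**Figure D3:**
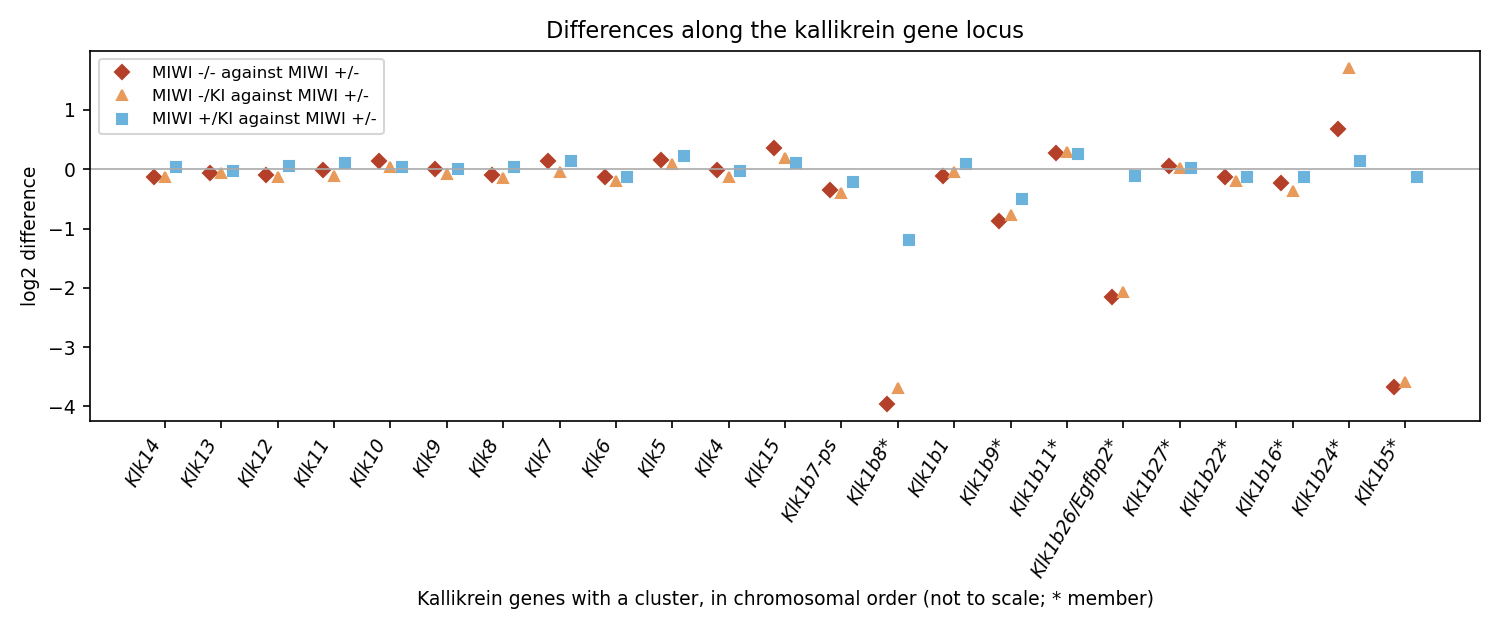
Log2 difference from MIWI +/- in MIWI -/-, MIWI -/KI and MIWI +/KI for the 23 kallikrein genes with a cluster, in chromosomal order with equal spacing; members are starred. Klk1b8, Klk1b26/Egfbp2 and Klk1b5 lie far below 0 in both genotypes without a wild-type allele, Klk1b9 lies between them at -0.87 and -0.77, and Klk1b24 lies above 0 in MIWI -/KI (1.72).

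Kallikreins work with other proteases, substrates and inhibitors, and these were counted over lists drawn up by function. Of 20 other serine proteases, most of them of the testis, 5 fell and 1 rose in MIWI -/- against MIWI +/-, beside 3.53% and 2.6% of all genes. Prss58 fell 11.0-fold (log2 difference -3.46), Prss52 6.85-fold and Prss51 6.31-fold, and Acr, the gene of the acrosomal protease acrosin, rose 1.71-fold. In MIWI -/KI against MIWI +/- the same 5 fell and none rose, beside 3.12% and 3.11%. Against MIWI +/KI, 3 fell (Prss51, Prss55 and Prss58), beside 1.29%. The list's median was -0.00, -0.16 and -0.05 in these comparisons, and 14, 15 and 17 of the 20 were not called.

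Among 11 measured kallikrein substrates, receptors and related peptidases, Ace, whose testis form is made in spermatids, was the 1 that fell. Against MIWI +/- its log2 difference was -1.01 for MIWI -/- and -1.36 for MIWI -/KI, against MIWI +/KI it was -1.24 for MIWI -/KI, and none of the 11 rose. Of all genes, 3.53%, 3.12% and 1.29% fell in these 3 comparisons, in this order. Of 21 inhibitors of serine proteases, none passed in MIWI -/- against MIWI +/-, beside 6.13% of all genes. In MIWI -/KI against MIWI +/-, 1 fell, beside 3.12% of all genes: Serpina1c, which encodes an alpha-1-antitrypsin (-1.12). None of the 21 passed in MIWI -/KI against MIWI +/KI, beside 2.43% of all genes.

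Other cell types could also give kallikrein signal, so their markers were read beside the members. The 13 measured Leydig cell markers, which matter for Klk1b24 and Klk1b27, had summed intensities of 2108 and 1992 in MIWI +/-, 1750 and 2121 in MIWI +/KI, 2552 and 1836 in MIWI -/-, and 2232 and 2217 in MIWI -/KI. None of the 13 was at 0, and none passed in any of 4 comparisons. Of all genes, 6.13% were called in MIWI -/-, 6.23% in MIWI -/KI and 0.0953% in MIWI +/KI, each against MIWI +/-. In MIWI -/KI against MIWI +/KI, 2.43% were called. With so few markers, a count of 0 lies near these shares. The median log2 difference of the 13 from MIWI +/- was 0.24 in MIWI -/-, 0.23 in MIWI -/KI and -0.23 in MIWI +/KI. It was 0.40 in MIWI -/KI against MIWI +/KI. Of 17 Sertoli cell markers, 3 fell in MIWI -/-, beside 3.53% of all genes, and 4 in MIWI -/KI, beside 3.12%, both against MIWI +/-, with sums of 3061 to 3258 in MIWI +/-, 2468 to 2986 in MIWI +/KI, 1828 to 2306 in MIWI -/- and 1794 to 2212 in MIWI -/KI. The 12 blood and macrophage markers summed to 2555 to 2722 in MIWI +/-, 1981 to 2065 in MIWI +/KI, 1697 to 1710 in MIWI -/- and 1662 to 1818 in MIWI -/KI. The brightest single reading among them in MIWI +/- was 1680. Their median log2 difference from MIWI +/- was -0.03 in MIWI -/- and -0.05 in MIWI -/KI. Of these 12, 3 fell in each genotype without a wild-type allele against MIWI +/-, beside the same shares of all genes. Markers of the epididymis and accessory glands, 11 in all, summed to 320 to 369 over all arrays. None passed in the 4 comparisons, again near the shares of all genes given for the Leydig cell markers. For 17 spermatocyte markers the sums were 13447 to 14390 in MIWI +/-, 13772 to 13900 in MIWI +/KI, 13871 to 15815 in MIWI -/- and 14076 to 16113 in MIWI -/KI. Against MIWI +/-, Piwil2 rose and Syce2 fell in each genotype without a wild-type allele. Of all genes, 2.6% and 3.11% rose there, and 3.53% and 3.12% fell. In MIWI -/KI against MIWI +/KI only Piwil2 was called, higher by 0.74 on the log2 scale, beside 1.14% of all genes. Round spermatid markers summed to 37482 to 40713 in MIWI +/-, 30570 to 32143 in MIWI +/KI, 20208 to 21666 in MIWI -/- and 22166 to 25222 in MIWI -/KI. Bright genes weigh most in such sums. The median log2 difference of these markers from MIWI +/- was -0.25 in MIWI +/KI, -0.22 in MIWI -/- and -0.12 in MIWI -/KI. In each genotype without a wild-type allele, 14 of the 20 were not called against MIWI +/-. The part of these shifts in the kallikrein readings was not tested.

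Finally, genes with the most similar pattern were found by the root-mean-square difference between log2 profiles over the 8 arrays, each centred on its own mean, among 18697 named genes outside the list. For Klk1b8 the 5 closest were Lexm (0.14), Dydc2 (0.16), the carbonic anhydrase gene Car2 (0.18), Ubqlnl (0.20) and Efcab1 (0.22), against a median of 1.68 over all genes compared. Lexm read 831 and 799 in MIWI +/-, 400 and 334 in MIWI +/KI, 48.1 and 53.9 in MIWI -/-, and 76.8 and 70.9 in MIWI -/KI. Its genotypes came in the same order as those of Klk1b8, and in both genes MIWI -/KI lay above MIWI -/- without overlap. For Klk1b5 the 5 closest were Mlkl (0.36), a gene of necroptosis, the antisense transcript Itpr3os (0.36), Tlcd4 (0.39), Mical3 (0.39) and Agpat2 (0.43), against a median of 1.80. Itpr3os read 848 and 927 in MIWI +/-, 1054 and 834 in MIWI +/KI, 43.3 and 55.6 in MIWI -/-, and 46.2 and 48.8 in MIWI -/KI, with 2 levels as in Klk1b5. The other 4 lay lower in MIWI +/KI than in MIWI +/- without overlap, as Klk1b8 did: Tlcd4, for one, read 1522 and 1481 in MIWI +/- and 901 and 845 in MIWI +/KI. Klk1b8 itself, left out of the search as a member, differed from Klk1b5 by 0.426, less than Agpat2 did (0.432). These genes share the arrays and were picked for likeness, so the values describe and test nothing.

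**Figure D4:**
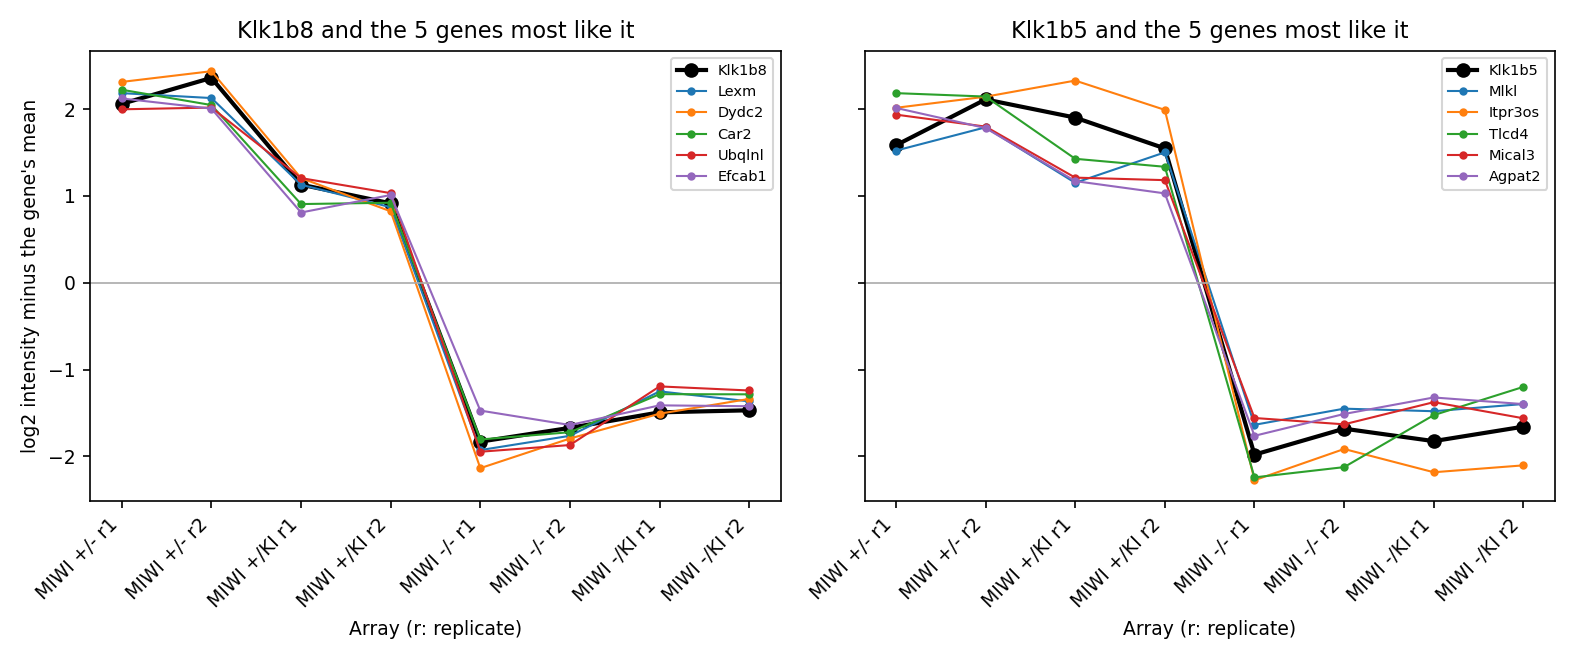
Log2 intensity minus each gene's mean over the 8 arrays, for Klk1b8 (left) and Klk1b5 (right) in black and the 5 genes most like each in colour. The Klk1b8 set steps down from MIWI +/- to MIWI +/KI and again to the 4 arrays without a wild-type allele; Klk1b5 and Itpr3os overlap between MIWI +/- and MIWI +/KI before the same drop, and the other 4 genes on the right lie lower in MIWI +/KI.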

How the data were processed

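The deposited table gave a linear intensity for each transcript cluster, made by the authors with RMA, per the submitters' processing notes; its version, the genome build and probe positions are not given in the sources used here. The log2 of each intensity was taken. Cells holding whole numbers more than 100 times that cluster's median elsewhere (8 cells in 8 clusters, none of a member) were treated as missing. By the platform's annotation, 21789 of 35512 clusters had 1 symbol, 1621 several and 12102 none. Each gene was read on its brightest single-symbol cluster. All 8 arrays entered 1 fit with limma 3.58.1 in R 4.3.3 (a mean per genotype, an intensity trend), and its two-sided p-values were adjusted by Benjamini-Hochberg across the 35512 clusters. Folds are differences of mean log2 intensity; intervals are 95% from the moderated SE. The script was tested on simulated data. Promoters were aligned with Biopython 1.88.

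The members, lists and tests were chosen with earlier results of these data known. Klk1b8 and Klk1b5 were left out of all tests; for 2 of the 4 tested comparisons, those of MIWI +/KI with MIWI +/- and of MIWI -/KI with MIWI -/-, this was decided after the results were seen. Every member is described. For Klk1b8 and Klk1b5 the 5 most similar genes were named, skipping uncharacterised loci, and for each list up to 3 called genes per direction. Alternatives covered damaged cells, an added constant, a filter on dim clusters, normalization, variance model, array weights, the replicate number and single arrays.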

Additional observations from a re-analysis of the deposited data

How the results depend on the processing

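For MIWI +/KI against MIWI +/-, 1 of 6 members passed with array weights (Klk1b9; 2650 of 35512 clusters passed there, against 23), against 0 of 6; the filter on dim clusters left none of the 6 and gives no count. For MIWI -/KI against MIWI +/KI, 0 passed with only the groups compared (126 clusters passed, against 665), and between 0 and 1 when 1 array was left out, against 1 of 6. For MIWI -/KI against MIWI -/- and for the difference of differences no alternative changed the count of 0, and the latter could not be fitted with only the groups compared. Values near 0 changed sign when 1 array was left out. For MIWI +/KI against MIWI +/-, Klk1b5 ranged from -0.39 to 0.14, above 0 without MIWI +/- replicate 2 (0.14) and without MIWI +/KI replicate 2 (0.05), and Klk1b24 from -0.0596 to 0.34, below 0 without MIWI +/KI replicate 2 (-0.0596) and without MIWI +/- replicate 1 (-0.01). For MIWI -/KI against MIWI -/-, Klk1b5 ranged from -0.0601 to 0.24 and Klk1b26/Egfbp2 from -0.0013 to 0.18, both lowest without MIWI -/- replicate 1. The replicate numbers share only a number (r of deviations between -0.26 and 0.30 over pairs of genotypes); with the replicate block 1 member, Klk1b24, passed in MIWI -/KI against MIWI +/KI, as without it, and 0 in the other comparisons. Against MIWI +/-, Klk1b8 ranged from -4.11 to -3.54 in MIWI -/- and Klk1b5 from -3.94 to -3.01 over 18 alternatives. The cause of these changes was not tested. Having 2 arrays per genotype limits all of these.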
